A study of Rattus norvegicus with 11 samples.

Results

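The 61 genes described here form a set whose average level in rat spinal cord was highest in naive animals, lower after paclitaxel with an inactive electrode, and lowest after paclitaxel with an active electrode. They were chosen by that pattern. Of 32623 gene IDs counted, 14467 had a mean of at least 1 CPM (the count as a share of the library total, multiplied by 1000000), and 61 of these met every criterion. On the scale log2(CPM + 0.5), the mean had to be at least 0.1 lower in sham than in naive libraries, at least 0.1 lower in stimulated than in sham libraries, and every stimulated library had to lie below every naive and every sham library. All 3 contrasts between the groups therefore entered the choice, and the differences below describe the set and do not test it.

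Poly(A)-selected RNA came from the ipsilateral spinal cord of adult male rats. The Naive group (3 libraries) received neither drug nor electrode. The PTX+Sham SCS group (5 libraries, called sham) received 1.5 mg/kg of paclitaxel into the peritoneum on days 1, 3, 5 and 7 and an electrode that was not switched on. The PTX+SCS group (3 libraries, called SCS) received the same drug and electrode with spinal cord stimulation at 50 Hz and 0.2 ms pulses, at 80% of a level that the labels abbreviate as MoT. Drug and electrode were always given together, so their parts cannot be told apart in sham against naive, and SCS against naive adds stimulation to both. Groups follow the group label. The titles mark SCS libraries with S, which could also be read as sham, and sham libraries with X. Whether different libraries came from different rats is not stated in the labels, and a p-value here then reflects only how these samples varied, which may be technical. Total counts were 17401720 to 56775931 in naive, 11243288 to 22144967 in sham and 18633243 to 29395233 in SCS libraries. Libraries carry the replicate numbers of their titles, which for SCS are 1, 2 and 5.

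Paclitaxel binds tubulin and stabilises microtubules, which disturbs transport along the long axons of sensory neurons and can cause a painful neuropathy. The central branches of those neurons end in the dorsal horn of the spinal cord, where local inhibitory neurons and glia shape what is passed on to the brain. Spinal cord stimulation applies current over the dorsal columns and is used against chronic pain. A level in whole tissue averages over neurons, glia and vessels, and in such samples fewer cells of a type and less RNA per cell cannot be told apart. The count table gives Ensembl gene IDs without symbols, and 0 of them could be matched to the gene table used here, so the functions, sequences and cell types of the 61 genes are not described, and the labelled tissue was not checked against its marker genes.

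The criteria narrowed the 14467 genes unevenly. A mean at least 0.1 lower in sham than in naive libraries was found for 2897 genes (20.0%), and 842 (5.82%) were also at least 0.1 lower in SCS than in sham. In 660 of those every SCS library lay below every naive library, and in 61 (0.422%) every SCS library lay below every sham library as well. In this order the last criterion removed most of the 660, and another order would divide the removals differently. With all signs turned the same criteria kept 573 genes (3.96%) that were stepwise higher. The rule also asks for its count under relabelled libraries. Over all 9240 assignments of the 11 libraries to groups of 3, 5 and 3, the falling rule kept a median of 6 genes and at most 334, and 178 assignments, the labelled one included, kept at least 61. The rising rule kept a median of 6 and at most 576, and 2 assignments kept at least 573. These counts are given as a description, since many assignments share most of their libraries with the labelled one.

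The members as a set stepped down in modest amounts. The mean over members of log2(CPM + 0.5), set against each gene's mean over the 11 libraries, was 0.22 in naive 1, 0.19 in naive 2 and 0.16 in naive 3. It was -0.01 in sham 1, 0.10 in sham 2, 0.05 in sham 3, -0.01 in sham 4 and 0.00 in sham 5. It was -0.20 in SCS 1, -0.32 in SCS 2 and -0.19 in SCS 5. The groups did not overlap: sham 2 came closest to the naive libraries, and SCS 2 lay furthest below the rest. The group means were 0.19 ± 0.03 (SD, n = 3), 0.03 ± 0.05 (SD, n = 5) and -0.24 ± 0.07 (SD, n = 3). The median of the other genes with at least 1 CPM, on the same scale, stayed between -0.05 (sham 1) and 0.02 in every library.

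**Figure D1:**
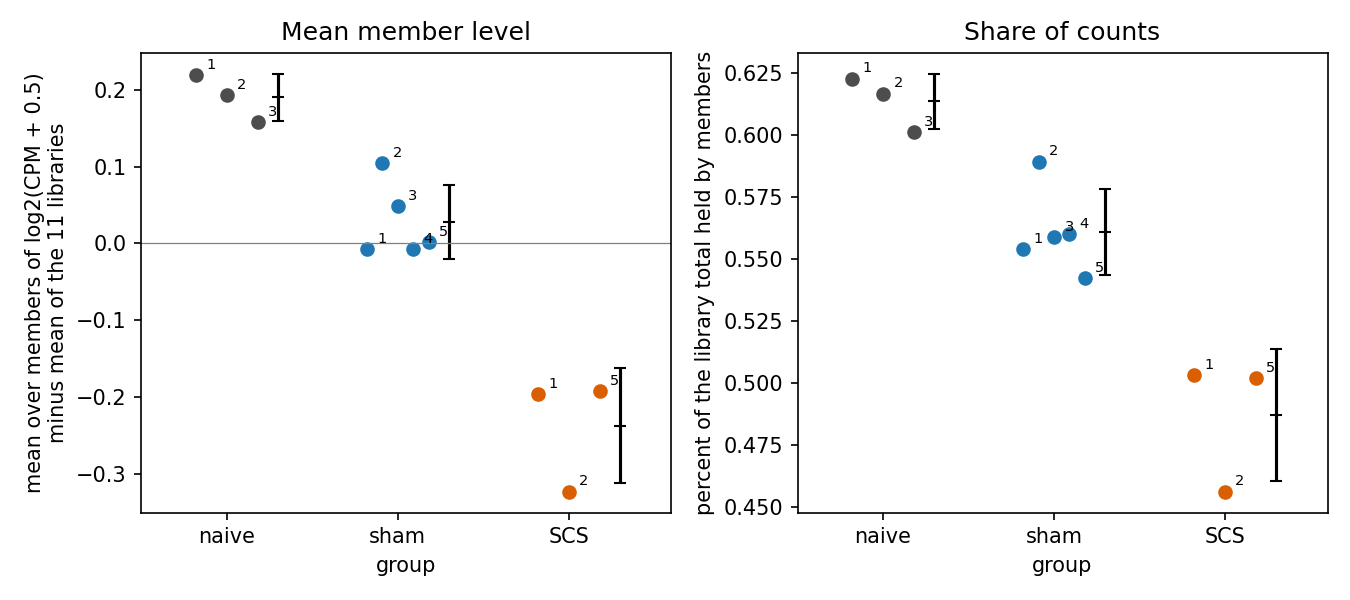
Left, the mean over the 61 members of log2(CPM + 0.5) minus each gene's mean over the 11 libraries, by group; right, the percentage of each library's counts that the members hold. Points are libraries with their replicate numbers, and the bars beside them give the mean and SD of the group. Sham libraries lie between naive and SCS libraries in both panels, and SCS 2 is lowest with 0.456% of its counts.

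Counted together, the members took 0.613% ± 0.011 of all counts in naive libraries (SD, n = 3), 0.561% ± 0.017 in sham libraries (SD, n = 5) and 0.487% ± 0.027 in SCS libraries (SD, n = 3). The range was 0.601% to 0.623% in naive, 0.542% to 0.589% in sham and 0.456% to 0.503% in SCS libraries. This sum is weighted toward abundant genes. Its order of groups largely follows from the rule, which each member had to meet, so it adds no separate support.

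Gene by gene, the naive to sham difference had a median of -0.14 (interquartile range -0.18 to -0.12, largest -0.38), about 9.24% lower on the scale of CPM + 0.5. The sham to SCS difference had a median of -0.22 (interquartile range -0.28 to -0.16, largest -0.85), about 14.3% lower. Naive to SCS, the median was -0.36 (-0.48 to -0.31), about 22.1% lower, and the members ranged from -0.24 to -1.22. On this scale, which understates the change of low genes, 1 of the 61 was at least 2-fold lower and 15 were lower by at least 0.5. Over all 14467 genes the medians of the 3 differences were -0.01, 0.00 and -0.01. The sham to SCS step was the larger in 52 of the 61 genes. The share of the naive to SCS difference already present in sham libraries had a median of 39.7% and ran from 11.9% to 65.1%. The rule kept SCS libraries apart from sham libraries but did not keep sham apart from naive libraries. That favours a larger sham to SCS step, so nothing is read from how the difference divides between the steps.

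**Figure D2:**
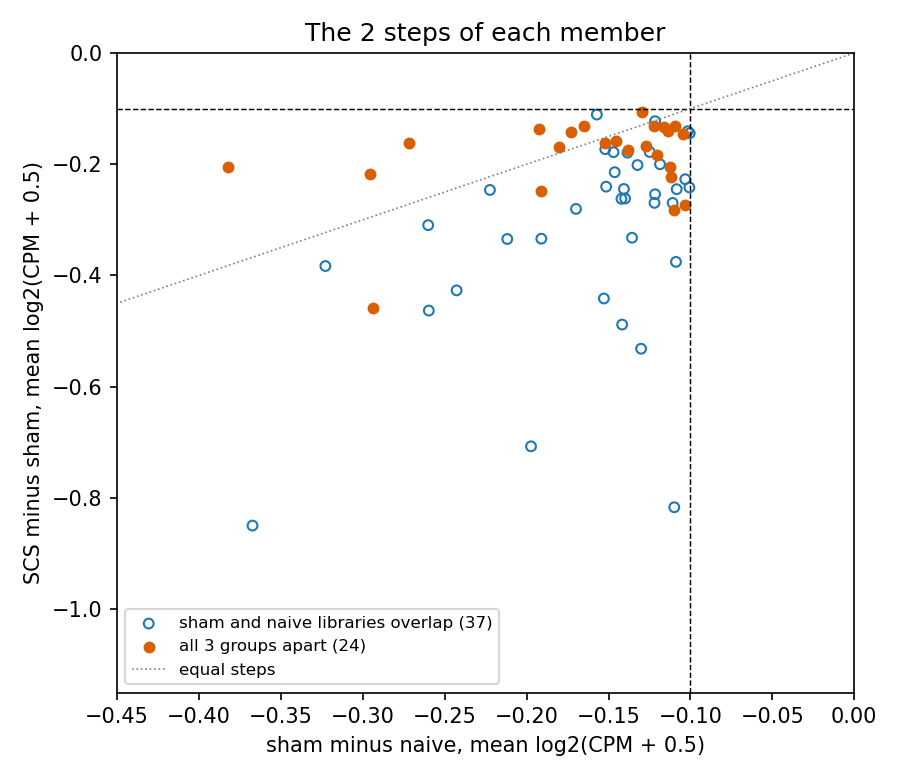
Each point is 1 of the 61 members, with the sham minus naive difference on the x axis and the SCS minus sham difference on the y axis, both in mean log2(CPM + 0.5). Dashed lines mark the rule's limit of -0.1 in each step and the dotted line marks equal steps, and 52 members lie below it. Filled points are the 24 members whose 3 groups are fully apart, and open points are the 37 in which sham and naive libraries overlap.

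The rule did not ask the sham and naive libraries to be apart, and in most members they were not. In 24 of the 61 genes every sham library lay below every naive library, against 4.34% of the 14467 genes, a share that cannot be compared with the members because the rule required lower sham means. A further 23 members had 4 of their 5 sham libraries below every naive library, 6 had 3, 6 had 2 and 2 had 1. Sham 2 reached the naive range in 26 of the 37 overlapping genes and was the only library to do so in 13 of the 23 with a single such library. Sham 3 reached it in 12, sham 1 in 9, sham 5 in 8 and sham 4 in 6. Without sham 2, the sham and naive libraries of 37 members were apart. The 24 fully separated members were more abundant, with a median of 77.0 CPM against 19.6 CPM in the other 37, and their median naive to SCS difference was smaller, -0.31 against -0.39.

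**Figure D3:**
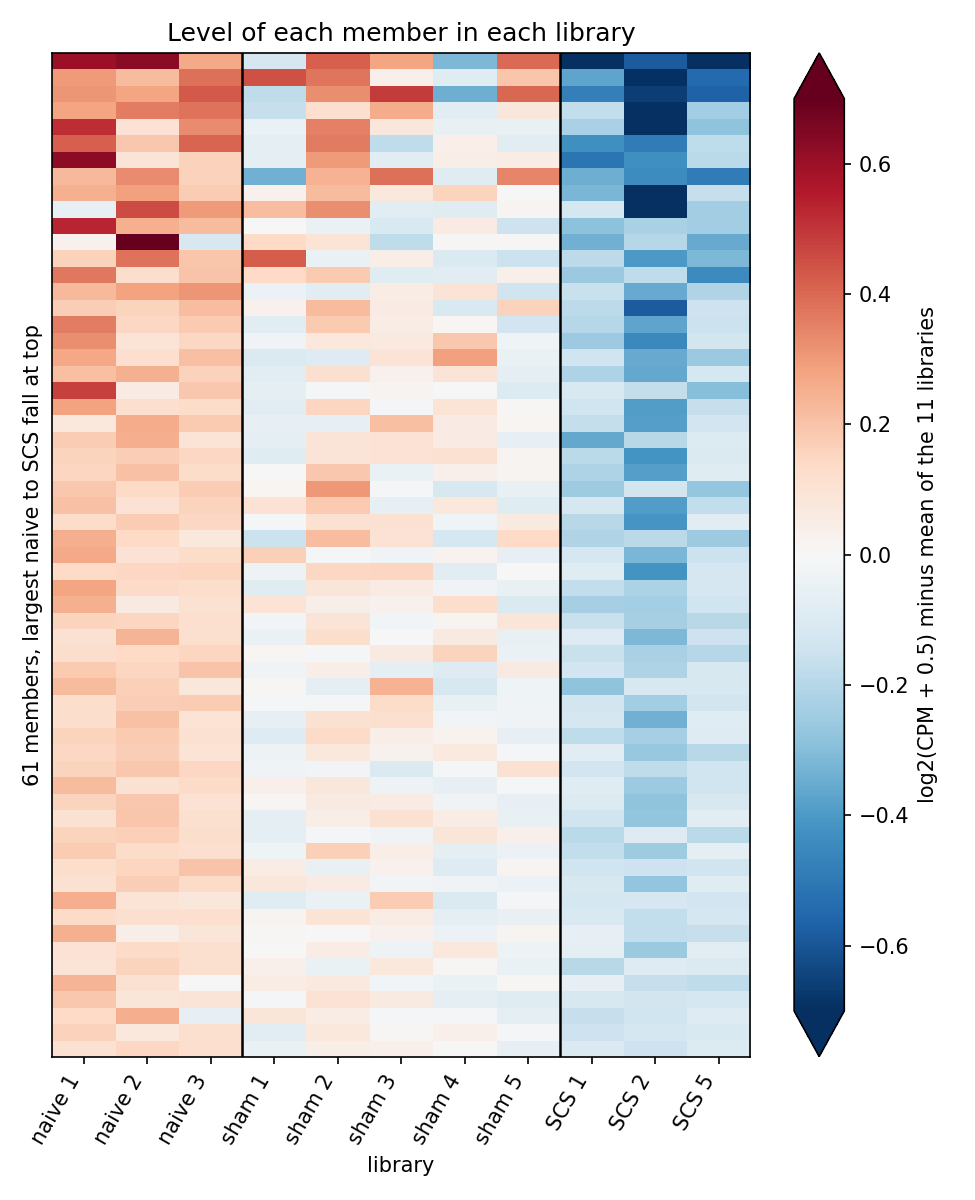
Rows are the 61 members, ordered by their naive to SCS difference with the largest at the top, and columns are the 11 libraries. Colour gives log2(CPM + 0.5) minus the gene's mean over the 11 libraries, cut at -0.7 and 0.7. SCS libraries are below all others in every row by construction, SCS 2 is the lowest of them in 44 rows, and sham libraries take values between and overlapping the naive ones.

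All the SCS libraries were below all others in each member because the rule demanded it, but by narrow margins. The gap between the highest SCS library and the lowest of the other 8 libraries had a median of 0.04 and a maximum of 0.28, and it was under 0.05 in 46 of 61 members. SCS 2 was the lowest SCS library in 44 genes, SCS 5 in 10 and SCS 1 in 7. On the other side, the lowest sham library was sham 5 in 20 genes, sham 4 in 18, sham 1 in 17, sham 3 in 6 and sham 2 in none of the 61. Of the genes with at least 1 CPM, 336 (2.32%) had every SCS library below every other library. The 275 of these that were not members lacked the first step in most cases: in 83 the sham mean was at or above the naive mean, and in 186 it was lower by under 0.1. In the other 6 the SCS mean was below the sham mean by under 0.1.

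ENSRNOG00000015763 had the largest difference of all members. It was at 16.2, 16.5 and 12.8 CPM in naive 1, 2 and 3, at 9.66, 14.2, 12.8, 8.36 and 14.0 CPM in sham 1 to 5, and at 6.29, 6.87 and 5.50 CPM in SCS 1, 2 and 5. Sham 1 and sham 4 lay below every naive library and the other sham libraries reached the level of naive 3, while the SCS libraries were tightly grouped below both. The means were 15.2 ± 2.1 (SD, n = 3), 11.8 ± 2.7 (SD, n = 5) and 6.22 ± 0.69 CPM (SD, n = 3), from 94 to 724 counts per library. In edgeR's quasi-likelihood fit over all genes its log2 fold change was -0.34 ± 0.16 (SE, adjusted p = 0.617) in sham against naive, -0.95 ± 0.17 (SE, adjusted p = 0.0130) in SCS against sham and -1.29 ± 0.18 (SE, adjusted p = 0.000807) in SCS against naive. This gene and the next were picked by their naive to SCS differences, so their p-values are given as a description. In SCS against sham neither was called without SCS 2, where no member was.

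ENSRNOG00000035557 had the second largest difference, nearly all of it in the second step. It was at 2.24, 2.09 and 2.41 CPM in naive 1, 2 and 3, at 2.53, 2.39, 1.78, 1.60 and 2.04 CPM in sham 1 to 5, and at 1.22, 0.644 and 1.03 CPM in SCS 1, 2 and 5. Sham 1 exceeded every naive library, so the mean difference of -0.11 from naive to sham was smaller than the SD of the sham libraries on that scale, 0.22. Its counts were low, from 12 in SCS 2 to 137 in naive 3. With edgeR its log2 fold change was -0.10 ± 0.24 (SE, adjusted p = 0.941) in sham against naive, -1.11 ± 0.26 (SE, adjusted p = 0.0360) in SCS against sham and -1.20 ± 0.28 (SE, adjusted p = 0.0113) in SCS against naive. The last of these had an adjusted p of 0.0537 without naive 3 and 0.0607 without SCS 2, with log2 fold changes of -1.14 and -0.99.

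A few further members, chosen after their values were seen to show the range of the set, are given without their IDs. The most abundant was at 677, 632 and 656 CPM in naive 1, 2 and 3, at 631, 668, 566, 618 and 554 CPM in sham 1 to 5, and at 543, 449 and 522 CPM in SCS 1, 2 and 5. Sham 2 lay among the naive libraries and the other 4 sham libraries below them, sham 1 by a narrow margin, and SCS 1 was only slightly under sham 5. With 6949 to 37236 counts per library, counting error was small here, and the edgeR log2 fold change was -0.29 ± 0.08 (SE, adjusted p = 0.0569) in SCS against sham and -0.39 ± 0.09 (SE, adjusted p = 0.00926) in SCS against naive.

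The member with the largest naive to sham difference had most of its change in that step. It was at 8.73, 7.06 and 6.92 CPM in the naive libraries, at 5.87, 5.66, 5.42, 6.14 and 5.26 CPM in sham 1 to 5 and at 4.73, 4.94 and 4.87 CPM in the SCS libraries. All 3 groups were apart, and 65.1% of its naive to SCS difference was present in sham libraries. For sham against naive edgeR gave it a log2 fold change of -0.40 ± 0.13 (SE), with an adjusted p of 0.419, the lowest of any member in that contrast.

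Among the members with all 3 groups apart, the one with the largest naive to SCS difference was at 1.95, 2.09 and 2.13 CPM in the naive libraries. It was at 1.31, 1.70, 1.92, 1.42 and 1.64 CPM in sham 1 to 5, and at 1.29, 0.644 and 1.21 CPM in SCS 1, 2 and 5. The groups touched at both ends, with sham 3 just under naive 1 and sham 1 just over SCS 1, and SCS 2 held only 12 counts.

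**Figure D4:**
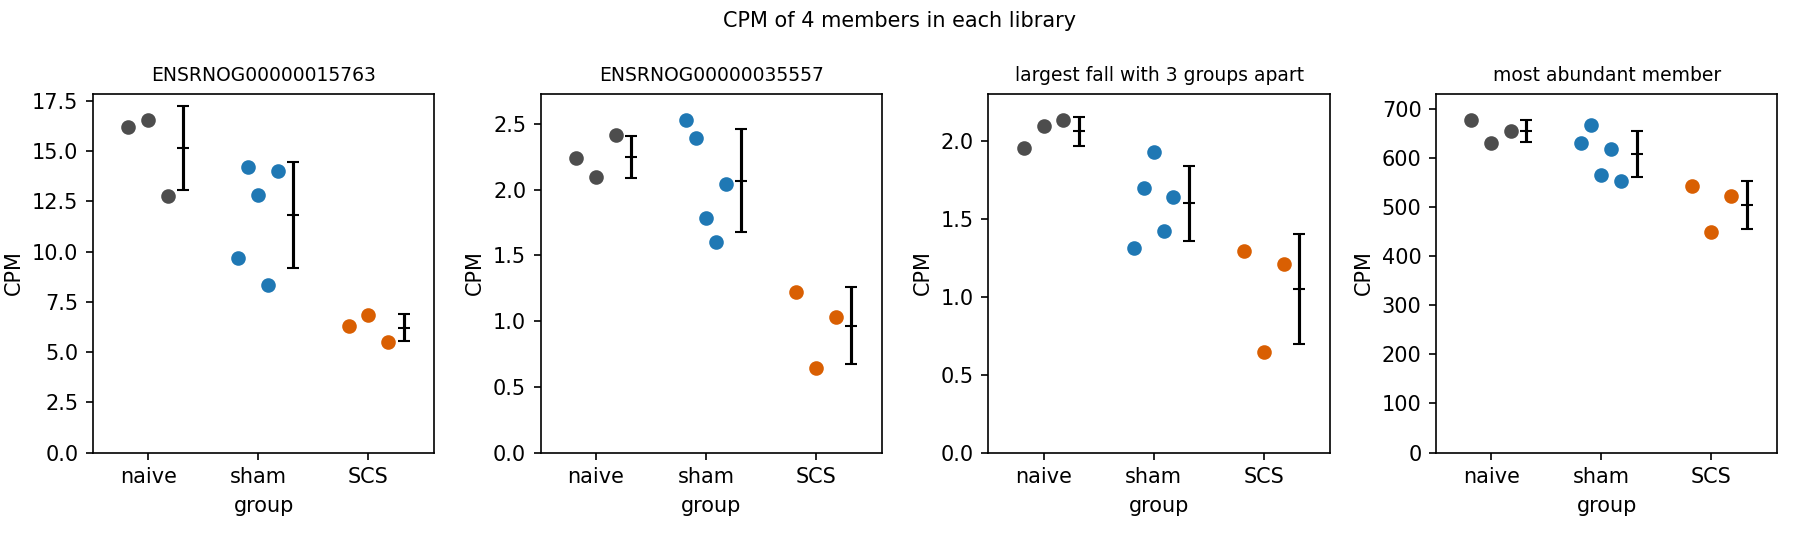
CPM in each library (points) with the mean and SD of each group (bars) for ENSRNOG00000015763, ENSRNOG00000035557, the member with the largest naive to SCS difference among those with 3 groups apart, and the most abundant member. The y axes start at 0 and differ in scale. The SCS libraries are lowest in each panel, and the sham libraries overlap the naive ones in all but the third.

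The fit over all 15758 tested genes calls few single steps among the members. In sham against naive 0 of the 61 passed an edgeR adjusted p of 0.05 (lowest 0.419, median 0.681). The edgeR background there was 1 lower gene of 15758, or 0.00635%. DESeq2 also called 0 members, with 11 lower genes of 22973 tested, and limma-voom called 0, with 0 lower genes of 15758. In SCS against sham 11 members passed as lower, where 0.577% of all genes did, and in SCS against naive 56 did, where 4.81% of all genes did. Because the rule used these contrasts, nothing is read from the excess. The median log2 fold changes of the members were -0.13, -0.24 and -0.37 in sham against naive, SCS against sham and SCS against naive, with a median standard error of 0.08 in each.

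The number of calls moved with single libraries, in the members and over all genes. In SCS against sham, 11 of the 91 genes called lower were members. There were 3 members of 33 lower genes without naive 1, 3 of 31 without naive 2 and 3 of 33 without naive 3. There were 4 of 27 without sham 1, 1 of 12 without sham 2, 4 of 39 without sham 3, 6 of 66 without sham 4 and 20 of 215 without sham 5. There were 6 of 74 without SCS 1, 0 of 1 without SCS 2 and 12 of 186 without SCS 5. DESeq2 called 25 of 260 and limma-voom 14 of 138. In SCS against naive, 56 of the 758 genes called lower were members. There were 27 of 170 without naive 1, 36 of 123 without naive 2, 41 of 200 without naive 3 and 36 of 142 without SCS 2. Without any other library, 49 to 56 members were called among 509 to 1021 lower genes.

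Abundance among the members ran from 1.46 to 592 CPM with a median of 27.8 CPM, close to the 24.4 CPM of all genes with at least 1 CPM. There were 14 members between 1 and 10 CPM (0.336% of the genes in that range), 33 between 10 and 100 CPM (0.402%) and 14 at 100 CPM or more (0.667%). The median naive to SCS difference was -0.61 in the low range, -0.33 in the middle and -0.33 in the high range, or about 34.4%, 20.4% and 20.2% lower. The rule asks for SCS libraries apart from the others, which takes a larger difference where libraries vary more. Whether spread accounts for the larger difference in the low range was not tested. The lowest count of any member in a library was 12, where counting alone gives an SD of 28.9%. In 24 members the lowest library count had a counting SD larger than the 6.70% that a step of 0.1 stands for. These errors cover counting only.

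Some of what the members shared within groups is not fixed by their group means. Each value was set against its group's mean, and the deviations of each pair of members were correlated over the 11 libraries. The median Pearson r over 1830 pairs was 0.23 (interquartile range -0.05 to 0.50), with 71.7% of pairs positive, against a median of 0.02 and 52.1% over all pairs of the 14467 genes. The pairs share libraries and depth, and the rule favours genes whose deviations leave SCS libraries apart from the others, so these values are a description. In sham 2, 47 of the 61 members were above the sham mean (77.0%, against 51.0% of all genes), and in sham 5 only 14 were (23.0%, against 56.3%). In SCS 2, 13 members were above the SCS mean (21.3%, against 49.1%). SCS 1 had 46 (75.4%, against 49.3%) and SCS 5 had 43 (70.5%, against 54.1%). In the naive group, naive 3 had 17 above the mean (27.9%, against 54.5%), naive 2 had 31 (50.8%, against 54.2%) and naive 1 had 35 (57.4%, against 43.9%).

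Spread within groups was lower in the members than in all genes with at least 1 CPM, which a rule that keeps SCS libraries apart favours. The median SD of log2(CPM + 0.5) was 0.06 against 0.08 in naive, 0.09 against 0.13 in sham and 0.10 against 0.13 in SCS libraries.

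The limits of the rule fall within a continuous distribution. Among genes whose SCS libraries were below all others, the 3 members nearest the limit had smaller steps of -0.102, -0.101 and -0.100, and the 3 nearest genes outside it had -0.0994, -0.0993 and -0.0978. The number of members also moved with single libraries. A library left out removes a condition and shifts a group mean, so genes can enter and leave. The number was 129 without sham 5, 155 without SCS 1 and 241 without SCS 5, and 61 to 89 without any other library. Of the original 61 genes, 49 to 61 were kept in these sets, with all 61 kept without SCS 1 or without SCS 5.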

How the data were processed

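The authors deposited raw read counts, 1 row per Ensembl gene ID. Per the submitters' processing notes, the build was rn6 and the tools included HISAT2 and featureCounts, with DESeq2 also listed. For their versions, the annotation and the strand setting, nothing is given in the sources used here, so the counts of overlapping, antisense and near-identical genes are uncertain. Each column was tied to the sample whose title its name holds. The table has 17 other sample columns, left unused. The members and lists were chosen with earlier results of these data known. The rule used CPM from column totals with a pseudocount of 0.5. Differences on that scale understate the change of low genes. The 11 libraries entered 1 edgeR 4.0.16 fit (R 4.3.3: filterByExpr, TMM factors, robust quasi-likelihood, 1 term per group), two-sided, with Benjamini-Hochberg adjustment over 15758 genes and a threshold of 0.05. All 61 members passed the filter. The fit was tested on simulated counts whose changes were larger than nearly all differences of the members. That test does not cover differences of the size described here. Genes were to be named by symbol from fixed rules covering falls, abundance and 21 gene lists (722 symbols) and 14 marker lists (116 symbols). None could be applied with 0 matched IDs, and the rule then allowed the 2 IDs with the largest fall. Alternatives were other scalings, pseudocount, step, CPM minimum and filter, DESeq2 1.42.0, limma-voom (limma 3.58.1), the replicate number as a block, and each library left out.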

Additional observations from a re-analysis of the deposited data

How the results depend on the processing

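The number of members was 86 with TMM-scaled and 77 with median-ratio-scaled CPM (54 of the 61 kept in each), 55 with a pseudocount of 2, 52 with a mean CPM minimum of 5, 65 with no minimum and 10 with a smallest step of 0.2. Leaving out 1 library gave 61 to 241 members. Leaving out 1 library gave 0 to 20 members called lower in SCS against sham, among 1 to 215 lower genes. It gave 27 to 56 in SCS against naive, among 123 to 1021. In sham against naive it gave 0 each time, where only 1 to 3 genes were lower, so nothing is read from that 0. In SCS against sham, DESeq2 called 25 members of 260 lower genes and limma-voom called 14 of 138. With the replicate number as a block, 0 members of 1 lower gene were called in SCS against sham and 16 of 86 in SCS against naive, and ENSRNOG00000035557 had an adjusted p of 0.0596 in edgeR's SCS against naive contrast. Deviations correlated from -0.17 to 0.13 in 8 same-numbered pairs and from -0.15 to 0.30 in 31 others, and 5 of 11 libraries had their highest correlation with a same-numbered one. The numbers were not used as pairs, since the labels give them no shared source. The correlations cannot settle whether a number marks one, because a shared source need not make every same-numbered pair correlate. At 12 counts, the lowest of a member in any library, the counting SD (28.9%) exceeded a step of 0.1 (6.70%). The causes of these changes were not tested.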
